A study of Mus musculus with 2 samples.

Results

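The 37 genes described here act in the S and G2/M phases of the cell cycle, and all 37 were found by symbol both among the 17758 genes of a single-cell table and among the 16906 genes of a bulk table. Mice were at postnatal day 3, and both tables come from the periphery of the lung. The first is 1 single-cell library (10x Chromium 3′ chemistry) of sorted cells with a wild-type genotype. The second is 1 bulk library of sorted PDGFRA+ cells with the genotype Pdgfra-H2BGFP, in which a green fluorescent histone in the nucleus marks cells that use the Pdgfra locus. Both are labelled control lungs, with no other treatment or allele. The gate of the single-cell sort, the mouse strain and any pooling of animals were not stated, and a gate can set the shares of cells given below. With 1 sample in each group nothing was tested between samples, and every interval below covers counting error only.

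Before a cell divides it copies its DNA in S phase, and in G2 and mitosis it condenses, aligns and separates the copies. The transcripts for these steps are made in waves. Genes of replication rise as E2F factors are freed from the retinoblastoma family, and genes of mitosis rise later under MYB and FOXM1 with the MuvB complex, so a cell's transcripts tell roughly where in the cycle it is. The postnatal lung is a growing organ: capillaries, fibroblasts and epithelium expand while septa subdivide the air sacs, and resident macrophages settle and multiply after birth.

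The members fall into 5 roles. In S phase, 9 members license or unwind origins (Mcm2, Mcm3, Mcm4, Mcm5, Mcm6 and Mcm7, which form the replicative helicase ring, Cdc6, which loads it, and Cdc45 and Gins2, which activate it). Another 7 supply or accompany the copying: Rrm1 and Rrm2 make deoxynucleotides, Tyms makes thymidylate, Pcna is the sliding clamp, Slbp binds histone mRNA, and Uhrf1 and Hells serve the passing on of DNA methylation. In G2/M, 9 members are cyclins, kinases or parts of the degradation machinery (Cdk1, Ccna2, Ccnb1, Ccnb2, Aurka, Aurkb, Bub1, Ube2c and Cdc20). A further 8 build the spindle, complete cytokinesis or organise chromosomes (Top2a, Mki67, Tpx2, Nusap1, Kif11, Kif23, Hmmr and Ckap2). The last 4 act at the centromere (Cenpa, Cenpe, Cenpf and Birc5).

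The DNA around annotated starts of these genes carries the letters of the 2 waves. RefSeq windows on GRCm38.p6, each 300 bases long from 250 before to 50 after an annotated start, were held for 32 of the 37 members (34 windows, since Mcm7 and Uhrf1 have a second start). For some members, such as Cdc6 and Hells, the start used lies inside the gene. They were searched on both strands for E2F letters (TTTGGCGC, TTTCCCGC, TTTCGCGC or TTTGCCGC), for the cell cycle homology letters TTTGAA or TTCGAA, and for CCAAT. E2F letters stood in 7 of 16 S windows (43.8%) and 1 of 18 G2/M windows (5.56%, Cdk1), against 2.26% of all 32851 windows. Cell cycle homology letters stood in 14 of 18 G2/M windows (77.8%), in 3 of 16 S windows (18.8%) and in 19.2% of all windows. CCAAT was found in 88.9% of the G2/M and 81.2% of the S windows, against 37.4% of all. At least 1 CCAAT together with the homology letters occurred in 77.8% of G2/M windows and in 7.52% of all windows. A match of letters is a description and not a bound site.

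To show the S pattern, 3 members with E2F letters near the start are printed as 150 bases of GRCm38.p6, read 5′ to 3′ along the gene, with 120 before and 30 after the start. All searched letters are in capitals, so CCAAT and its complement ATTGG also appear. Mcm6 lies on the minus strand at chr1:128359676-128359825, Mcm3 on the minus strand at chr1:20820283-20820432, and Hells on the plus strand at chr19:38930870-38931019. The Hells stretch surrounds a start inside the gene, which begins at position 38930262.
Mcm6: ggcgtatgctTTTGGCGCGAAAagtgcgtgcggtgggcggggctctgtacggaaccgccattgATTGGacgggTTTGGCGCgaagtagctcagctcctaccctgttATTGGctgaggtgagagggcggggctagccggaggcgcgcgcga
Mcm3: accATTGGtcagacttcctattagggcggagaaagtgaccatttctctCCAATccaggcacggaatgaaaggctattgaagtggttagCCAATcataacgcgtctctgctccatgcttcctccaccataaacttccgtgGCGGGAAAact
Hells: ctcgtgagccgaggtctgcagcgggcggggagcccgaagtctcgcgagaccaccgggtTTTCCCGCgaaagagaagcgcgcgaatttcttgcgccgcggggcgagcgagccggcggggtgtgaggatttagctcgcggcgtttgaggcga

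The G2/M pattern is shown by 5 members on the minus strand, drawn in the same way: Cdk1 at chr10:69352883-69353032, Ccnb2 at chr9:70421525-70421674, Cdc20 at chr4:118437314-118437463, Top2a at chr11:99024160-99024309 and Hmmr at chr11:40733408-40733557. In each, TTTGAA or its complement TTCAAA lies near the start, counted from the start as position -15 in Cdk1, 5 in Ccnb2, -18 in Cdc20, -23 in Top2a and 9 in Hmmr, and CCAAT or ATTGG precedes it.
Cdk1: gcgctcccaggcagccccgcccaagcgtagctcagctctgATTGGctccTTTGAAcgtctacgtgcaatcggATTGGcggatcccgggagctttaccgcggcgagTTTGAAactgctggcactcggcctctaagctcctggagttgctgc
Ccnb2: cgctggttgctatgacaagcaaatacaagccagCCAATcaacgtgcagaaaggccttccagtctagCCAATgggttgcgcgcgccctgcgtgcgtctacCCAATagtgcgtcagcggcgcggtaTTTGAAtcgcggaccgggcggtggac
Cdc20: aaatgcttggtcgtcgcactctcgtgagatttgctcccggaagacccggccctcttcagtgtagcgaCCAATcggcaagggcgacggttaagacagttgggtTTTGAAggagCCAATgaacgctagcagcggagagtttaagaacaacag
Top2a: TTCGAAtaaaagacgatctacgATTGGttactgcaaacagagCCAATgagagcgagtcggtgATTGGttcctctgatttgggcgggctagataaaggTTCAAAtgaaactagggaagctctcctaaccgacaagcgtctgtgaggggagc
Hmmr: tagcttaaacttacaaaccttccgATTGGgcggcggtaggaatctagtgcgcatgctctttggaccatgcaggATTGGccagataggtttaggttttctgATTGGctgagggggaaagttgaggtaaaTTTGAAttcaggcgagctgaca

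Single cells were left out over 10% mitochondrial values (646 cells), predicted doublets were removed (586 cells, 5.5%), and 10074 of 11306 cells were kept. The single-cell values are whole numbers that had been corrected for depth: cell totals span only 1.79-fold (median 5537), while detected genes range from 709 to 3760 per cell. A level in CPM is the summed value of a class scaled to 1000000 and has no interval. Clusters took their names from marker lists and are called "-like", 24 names in all, of which 20 had at least 50 cells. A further 632 cells were left unnamed. The bulk table holds 171910584 reads. Of the members, 8 share exonic bases with a gene on the opposite strand (Mcm7, Gins2, Cdc45, Slbp, Ccna2, Nusap1, Ube2c and Cdc20), and with the strand setting of the counting not stated, reads of these pairs cannot be told apart.

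A cell was called cycling when at least 3 of Top2a, Mki67, Cdk1, Ccnb1, Tpx2 and Cenpf were above 0, and 1179 of 10074 cells (11.7%, exact 95% interval 11.1 to 12.3) met this rule. Cycling cells were spread over all 5 lineages. The share was 17.3% (15 to 19.8) in endothelial-like cells, 14.4% (12.9 to 16) in mesenchymal-like cells, 13.9% (12.5 to 15.4) in lymphoid-like cells, 10.1% (7.46 to 13.2) in epithelial-like cells and 8.54% (7.66 to 9.49) in myeloid-like cells. The background was taken from mature neutrophil-like cells, which do not divide: 1 of 1076 (0.0929%, up to 0.517%) met the rule, at a median of 1005 detected genes against 2048 over all cells. Single genes had a higher background, and Top2a was above 0 in 3.9% of those neutrophil-like cells. At the edge of the rule, 259 cells had exactly 3 of the 6 genes above 0 and 418 had exactly 2. Cells with exactly 3 had a median of 5 of the other 15 G2/M members above 0, and cells with exactly 2 had a median of 1.

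Over all kept cells, general capillary-like endothelial cells and alveolar myofibroblast-like cells had the highest shares of the 20 types. Of 634 general capillary-like cells 161 were cycling (25.4%, 22.0 to 29.0), and of 658 alveolar myofibroblast-like cells 166 were (25.2%, 22.0 to 28.7). The intervals of these neighbours in the order overlap almost wholly. The order changed with the range of detected genes and with the naming. Among cells with 1500 to 2500 detected genes these shares were 18.0% (14.1 to 22.4) and 18.3% (12.8 to 25), below the 29.9% (22.9 to 37.8) of natural killer-like cells. That band also selects on cycling. Median detected genes were 2311 in cycling natural killer-like cells and 1359.5 in those with 0 of the 6 genes. In alveolar myofibroblast-like cells they were 3033.5 and 2663. The band therefore keeps unlike parts of each type, and the part of detection was not tested. A lymphoid cluster later pooled with T-like cells held 55.3%. Alveolar macrophage-like cells followed with 265 of 1153 (23.0%, 20.6 to 25.5), and natural killer-like cells with 79 of 401 (19.7%, 15.9 to 23.9). Pericyte-like cells stood at 14.9% (9.06 to 22.5), interstitial macrophage-like cells at 14% (7.87 to 22.4), smooth muscle-like cells at 12.3% (8.45 to 17.1), alveolar type 2-like cells at 11.2% (8.3 to 14.7) and conventional dendritic-like cells at 11.1% (6.21 to 17.9). These 5 intervals overlap one another, so their order is not resolved. The share was 7.03% (4.51 to 10.4) in B-like and 3.87% (1.43 to 8.23) in basophil or mast-like cells, and both intervals overlap that of conventional dendritic-like cells.

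**Figure D1:**
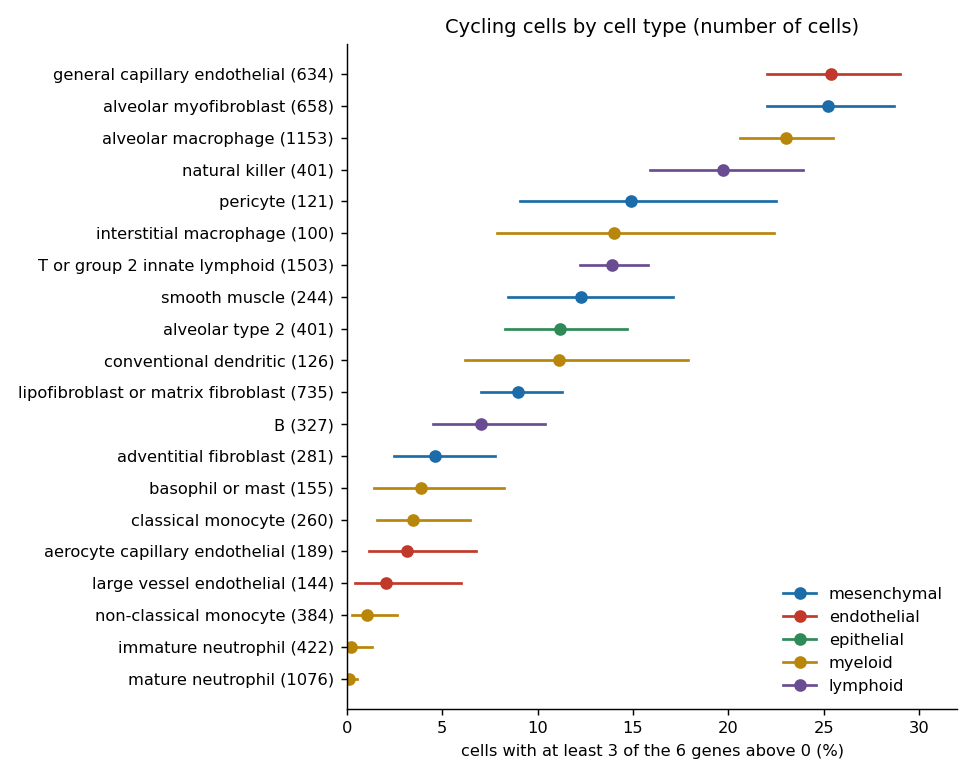
Share of cells with at least 3 of the 6 genes above 0 (horizontal axis, percent) in each of the 20 marker-named cell types with at least 50 cells. Points are shares, lines are exact 95% intervals for counting error and colours are lineages. General capillary, alveolar myofibroblast and alveolar macrophage cells lie above 20%, and both neutrophil types lie below 1%.

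Closely related cells differed. Within the capillary bed, 6 of 189 aerocyte-like cells (3.17%, 1.17 to 6.78), the thin gas-exchange endothelium, were cycling, against 25.4% of the general capillary-like cells. Median detected genes were 1905 and 2203.5. Among cells with 1500 to 2500 detected genes the shares were 3.64% (1.0 to 9.05) and 18.0% (14.1 to 22.4). Large vessel-like endothelium had 3 cycling cells of 144 (2.08%, 0.432 to 5.97). Among fibroblasts, 8.98% (7.01 to 11.3) of 735 lipofibroblast or matrix fibroblast-like cells and 4.63% (2.49 to 7.78) of 281 adventitial fibroblast-like cells were cycling. Adventitial fibroblast-like cells had about as many detected genes (median 2734) as the myofibroblast-like cells (median 2802.5). Among other myeloid cells the share was 3.46% (1.59 to 6.47) in classical monocyte-like, 1.04% (0.285 to 2.65) in non-classical monocyte-like and 0.237% (up to 1.31) in immature neutrophil-like cells. None of 32 alveolar type 1-like cells was cycling, which allows a share of up to 9.38% when 3 cells are taken as the limit of a count of 0 (exact upper limit 10.9%).

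Within alveolar myofibroblast-like cells the share moved with Pdgfra, the receptor that defines this fibroblast group. Of 461 such cells with Pdgfra above 0, 31% (26.8 to 35.5) were cycling, against 11.7% (7.55 to 17.0) of 197 with Pdgfra at 0. In other fibroblasts the split gave 12.9% (7.96 to 19.4) and 7.99% (5.93 to 10.5) in lipofibroblast or matrix fibroblast-like cells, and 4.38% (1.78 to 8.81) and 4.96% (1.84 to 10.5) in adventitial fibroblast-like cells. Median detected genes were also higher in the Pdgfra-positive myofibroblast-like cells (2898 against 2566), and the part of detection in this difference was not tested.

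Cycling cells could form clusters of their own although the 37 members and the other cycle genes listed below had been kept out of the clustering. Cycle genes outside these lists were not kept out, and Nek2 was among the top genes of the macrophage cluster described next. A cluster of 191 alveolar macrophage-like cells was 97.4% cycling, and the remaining 962 cells of that name were 8.21% cycling (6.56 to 10.1). Likewise a cluster of 45 lipofibroblast or matrix fibroblast-like cells was 97.8% cycling against 3.19% (2.01 to 4.79) of the other 690. In the 1500 to 2500 gene band the alveolar macrophage-like share was 6.57% (4.54 to 9.15). Cycling alveolar macrophage-like cells had a median of 3080 detected genes, against 2415 in those with 0 of the 6 genes, so that band leaves many of them out. Lower shares in the band were also found for lipofibroblast or matrix fibroblast-like (4.12%), pericyte-like (7.14%) and smooth muscle-like cells (3.31%), and a higher one for natural killer-like cells (29.9%).

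T-like and group 2 innate lymphoid-like cells were taken as 1 class, in which 209 of 1503 cells (13.9%, 12.2 to 15.8) were cycling. The pooling was chosen after the shares had been seen. As first named, the T-like clusters held 5.88% (4.64 to 7.32) cycling cells, and a cluster of 244 cells named group 2 innate lymphoid-like held 55.3% (48.9 to 61.7). The name of that cluster is uncertain, because 235 of its 244 cells had a Cd3 gene, a marker of T cells. In it 90 cells had Il5, Il13 or Il1rl1 above 0 and 37 had Cd8a. Over the pooled class 1475 of 1503 cells had a Cd3 gene and 28 had none. When each cell was named by its own marker score the shares were 14% for T-like and 11.4% for group 2 innate lymphoid-like cells. Within the pooled class, cells with Foxp3, the regulatory T cell factor, had 21 of 67 cycling (31.3%, 20.6 to 43.8), cells with Cd8a had 55 of 173 (31.8%, 24.9 to 39.3), and cells with Il5, Il13 or Il1rl1 had 23 of 107 (21.5%, 14.1 to 30.5). Cells chosen by a gene above 0 also had more detected genes, with medians of 2049, 1939 and 2074 against 1688 over the class, and the part of this was not tested.

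Levels of the members were compared across the 20 types. General capillary-like cells had the highest level of 21 of the 37 members, 17 of them in G2/M. Alveolar macrophage-like cells led for 8 members, 7 of them in S phase, and natural killer-like cells for 4, all in S phase (Mcm4, Mcm6, Cdc6 and Slbp). Alveolar myofibroblast-like cells led for 1 (Bub1). Some leads were small, such as Mcm7 at 74.0 CPM in alveolar macrophage-like and 73.4 in general capillary-like cells. The rule genes Top2a, Cdk1, Ccnb1, Tpx2 and Cenpf are among those highest in general capillary-like cells. The share of all genes highest in each type is not given, so these counts have no background beside them. Lowest levels lay mostly in neutrophil-like cells. The 6 genes of the rule set the order above, and their levels are a description only. Top2a, which untangles DNA, ranged over the 20 types from 15.9 CPM in immature neutrophil-like cells through a median of 74.3 to 274.1 in general capillary-like cells. Mki67, the coat protein of mitotic chromosomes, ranged from 10.8 CPM (non-classical monocyte-like) through 71.0 to 222.2 (alveolar macrophage-like). Cdk1, the mitotic kinase, ranged from 6.88 CPM through 39.2 to 135.3. Its partner Ccnb1, cyclin B1, ranged from 1.72 CPM through 16.5 to 56.4. Tpx2, which nucleates spindle microtubules, ranged from 1.29 CPM through 19.6 to 99.0, and Cenpf, a kinetochore protein, from 6.02 CPM through 47.8 to 259.7. All 4 of these were lowest in immature neutrophil-like and highest in general capillary-like cells, with alveolar myofibroblast-like cells second (122.9, 54.0, 83.3 and 178.9 CPM).

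**Figure D2:**
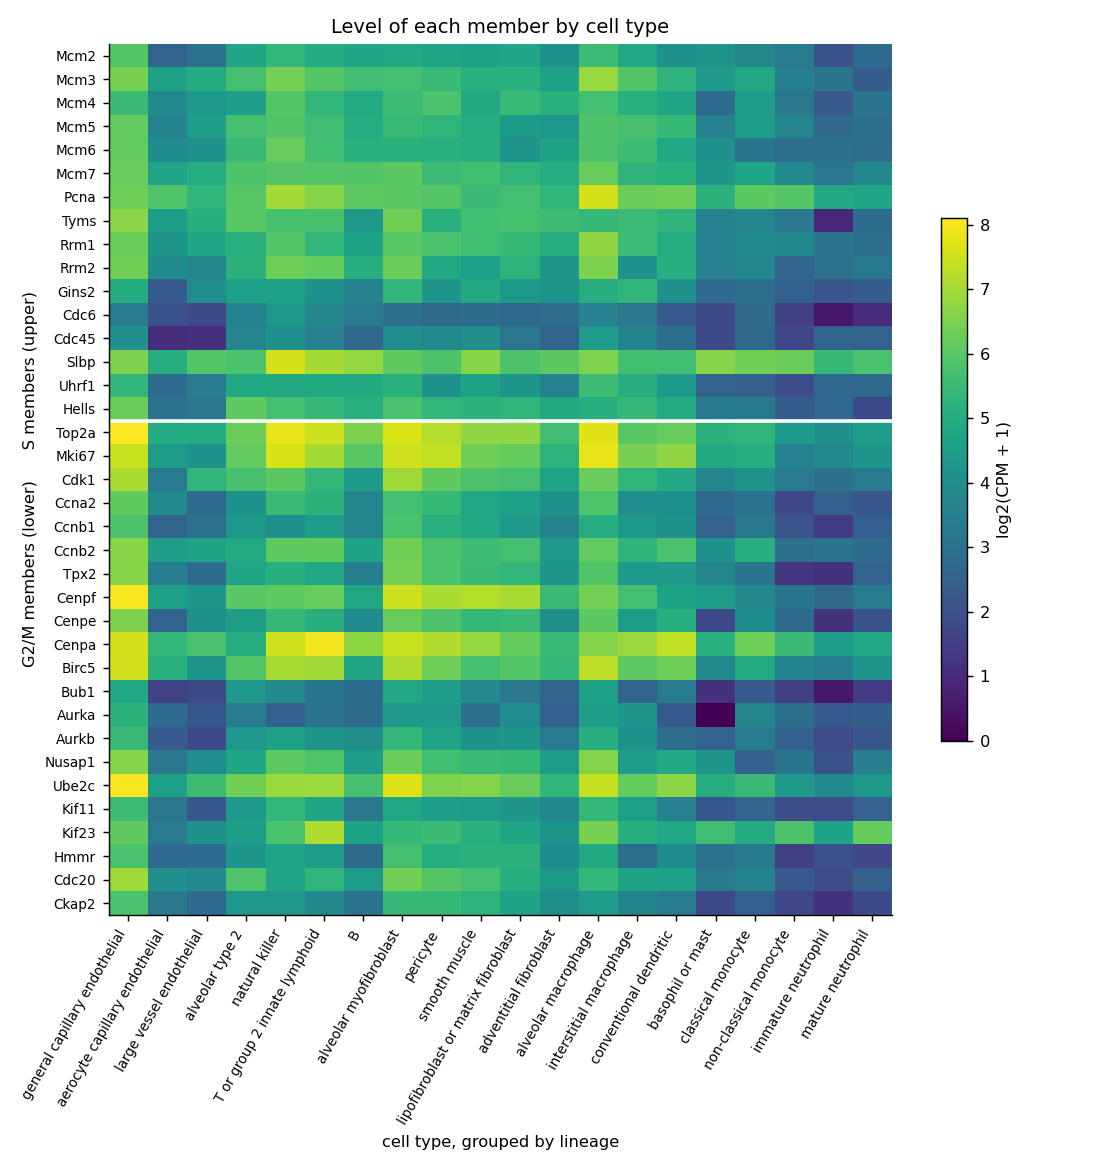
Level of each of the 37 members (rows, S members above the white line and G2/M members below it) in the 20 cell types (columns, grouped by lineage), as log2(CPM + 1). General capillary, alveolar myofibroblast, alveolar macrophage and natural killer columns are bright for most members, with exceptions such as Aurka in natural killer cells (4.69 CPM). Kif23 and Cenpa are brightest in the T or group 2 innate lymphoid column.

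Among S members, Mcm3, part of the helicase, ranged from 4.19 CPM in mature neutrophil-like cells through a median of 35.6 to 114.6 in alveolar macrophage-like cells, and Mcm7 from 8.16 CPM through 38.2 to 74.0 in the same type. Pcna ranged from 27.0 CPM through 62.3 to 189.5, again highest in alveolar macrophage-like cells. Slbp ranged from 31.9 CPM in aerocyte-like cells through 67.8 to 192.2 in natural killer-like cells, and 54.2 CPM remained in mature neutrophil-like cells. Pcna and Slbp therefore had higher floors than the other S members. Among G2/M members, Ube2c, the ubiquitin carrier of the anaphase complex, ranged from 13.8 CPM through 73.6 to 266.9, and Ccnb2 from 6.07 CPM through 35.7 to 99.9. Nusap1, a spindle microtubule protein, ranged from 3.01 CPM through 24.4 to 98.5, and Birc5 (survivin) from 10.3 CPM through 55.0 to 186.3. These 4 peaked in general capillary-like cells.

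Kif23 and Cenpa departed from that order. Kif23, the kinesin of the midbody, was highest in T or group 2 innate lymphoid-like cells (139.6 CPM), and mature neutrophil-like cells, the background for division, held 71.2 CPM against 68.2 in general capillary-like cells. In cells with 0 of the 6 rule genes, Kif23 stood at 135.7 CPM in T or group 2 innate lymphoid-like, 76.5 in mature neutrophil-like, 54.0 in non-classical monocyte-like and 4.64 in lipofibroblast or matrix fibroblast-like cells. Cenpa, the centromeric histone, was likewise highest in T or group 2 innate lymphoid-like cells (249.8 CPM), and stood at 154.9 CPM in those with 0 of the 6 genes. In alveolar myofibroblast-like cells with 0 of the 6 genes it stood at 21.9 CPM.

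The 31 members outside the rule were then set beside the call. Cycling cells were compared with the 6705 cells that had 0 of the 6 genes above 0, as a log2 ratio of CPM with 1 CPM added to both sides. All 31 had a ratio of at least 1 (median 3.56, from 1.63 for Slbp to 5.91 for Hmmr), while 7.93% of the 15049 genes compared were that much higher and 3.44% that much lower. The median over all genes was 0.24. Median detected genes were 2645 in cycling cells and 1820 in cells with 0 of the 6. By role, the median was 2.39 for the 9 origin members, 3.44 for the 7 members of nucleotide supply, clamp, histone and methylation, 4.97 for the 7 cyclin, kinase and degradation members outside the rule, 5.09 for the 5 spindle members and 5.4 for the 3 centromere members. As levels, Birc5 was at 548.8 CPM in cycling cells and 11.5 in the others, Ube2c at 689.2 and 12.4, Rrm2 at 266.3 and 7.75, and Slbp at 191.5 and 61.4.

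The same comparison was made inside each of the 6 types with at least 50 cycling cells so that both sides hold the same named type, and only members that passed a minimum sum of 20 were compared. In alveolar myofibroblast-like cells all 30 members compared were at 1 or more (median 4.3), beside 7.68% of 9841 genes higher and 3.62% lower. In lipofibroblast or matrix fibroblast-like cells it was 30 of 30 (median 4.58), beside 9.85% higher and 5.89% lower. Alveolar macrophage-like cells gave 31 of 31 (3.85), beside 10.4% and 0.626%. Natural killer-like cells gave 30 of 30 (3.45), beside 17.6% and 2.85%. In T or group 2 innate lymphoid-like cells it was 30 of 31 (3.98), beside 14.5% and 2.2%, and the exception was Kif23 at 0.52. General capillary-like cells gave 27 of 31 (3.59), beside 8.25% and 1.86%, and the exceptions were Mcm2 at 0.26, Mcm3 at 0.24, Mcm4 at 0.25 and Mcm6 at 0.84. Helicase members stood high in general capillary-like cells with 0 of the 6 genes: Mcm2 was at 54.2 CPM there, Mcm3 at 70.1 and Mcm6 at 51.9, against 14.8, 28.4 and 16.6 in the matching alveolar myofibroblast-like cells. Cells with 0 of the 6 genes can include cells in S phase, because the 6 are G2/M genes. By the S rule given below, 48 general capillary-like and 40 alveolar myofibroblast-like cells were in S only. How many of them had 0 of the 6 genes was not counted. Detected genes were higher on the cycling side in all 6 types, for example 3033.5 against 2663 in alveolar myofibroblast-like cells, and their part in these ratios was not tested. Among cells with 1500 to 2500 detected genes the count of members at 1 or more was 19 in lipofibroblast or matrix fibroblast-like cells, from 16 cycling cells. It comes without the number of members compared and the share of all genes in that band, and cannot be read as a drop.

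Levels within cycling cells differed between types for some members and little for others. Over the same 6 types, Ccna2 was nearly level in cycling cells (179.5 to 229.4 CPM), as was Birc5 (494.8 to 681.5). Aurka, a spindle pole kinase, spanned 7.0-fold, from 19.0 CPM in natural killer-like to 133.1 in lipofibroblast or matrix fibroblast-like cells, and Cdc20, which activates the anaphase complex, 4.34-fold (88.7 in natural killer-like and 385.3 in general capillary-like cells). Cdc6 ran the other way, with 69.7 CPM in cycling natural killer-like, 63.3 in T or group 2 innate lymphoid-like and 15.4 in alveolar myofibroblast-like cells, a 4.51-fold span. Slbp was also highest in natural killer-like (375.9 CPM) and lowest in alveolar myofibroblast-like cells (112.0). Mki67 (566.7 to 783.8 CPM) and Cenpf (259.7 to 1196) helped to choose these cells, so their levels here are a description only. All these spans rest on 66 to 265 cycling cells per type from 1 library.

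Phase was read with a second set of 6 genes (Mcm5, Rrm2, Gins2, Cdc45, Hells and Uhrf1), of which at least 3 above 0 marked an S cell. Over all types, 373 cells met only the S rule, 542 met both and 637 met only the rule of 6 G2/M genes, so S-only cells made up 24.0% (21.9 to 26.2) of the 1552 cells in either phase. The cycling call above leaves S-only cells out. Cells in either phase were 15.4% (14.7 to 16.1) of all kept cells, against 11.7% called cycling, and 19.2% (15.5 to 23.4) of alveolar type 2-like cells, against 11.2%. The lineages were close to one another except for the epithelium. The S-only share was 22.1% (18.0 to 26.6) in mesenchymal-like, 23.8% (18.4 to 29.9) in endothelial-like, 22.1% (18.1 to 26.5) in myeloid-like and 23.0% (19.0 to 27.4) in lymphoid-like cells, and 41.8% (30.8 to 53.4) in epithelial-like cells. Alveolar type 2-like cells, the surfactant makers, held 32 of the 33 S-only epithelial-like cells, and of their 77 cells in either phase 32 were S-only (41.6%, 30.4 to 53.4), 19 met both rules and 26 were in G2/M only. In the band of 1500 to 2500 detected genes the alveolar type 2-like value was 43.3% (30.6 to 56.8).

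Alveolar myofibroblast-like cells had 19.4% (14.2 to 25.5) S-only, 37.4% both and 43.2% G2/M-only among 206 cells, and 11.4% S-only (3.2 to 26.7) in the same band. General capillary-like cells had 23.0% (17.4 to 29.3), 31.1% and 45.9% among 209. Alveolar macrophage-like cells had 20.4% (16.2 to 25.2), 42.6% and 36.9% among 333, with 39.6% S-only (26.5 to 54.0) in the band. Adventitial fibroblast-like cells had 43.5% S-only, but from 23 cells (23.2 to 65.5). Summed over all members rather than counted by cell, the log2 ratio of the 16 S to the 21 G2/M members was -0.79 over all cells. It was -0.24 in alveolar type 2-like, -0.67 in alveolar macrophage-like, -1.28 in general capillary-like and -1.32 in alveolar myofibroblast-like cells. Types at or above the alveolar type 2-like value included B-like (-0.01), adventitial fibroblast-like (-0.18) and aerocyte-like cells (-0.24). Large vessel-like (-0.07) and non-classical monocyte-like cells (0.04), with few cycling cells, were also above it. This ratio therefore does not set alveolar type 2-like cells apart.

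**Figure D3:**
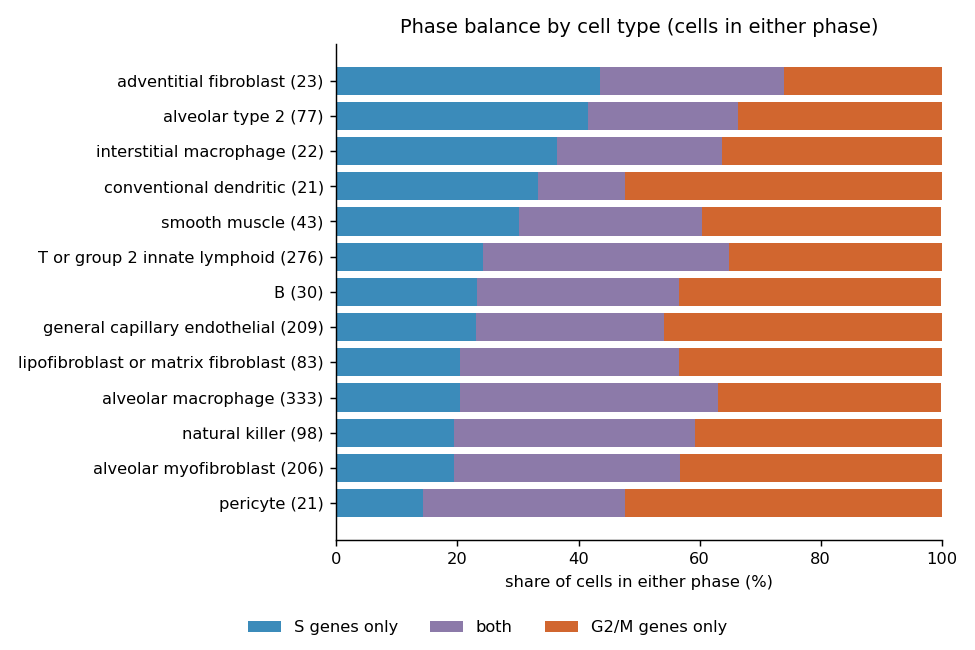
Share of S-only, both and G2/M-only cells (horizontal axis, percent of cells in either phase, number in brackets) for the 13 cell types with at least 20 such cells. The S-only part is 41.6% in alveolar type 2 cells and 43.5% in adventitial fibroblasts (23 cells), and 19.4% in alveolar myofibroblasts.

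S-only and G2/M-only cells were then compared for the 25 members used in neither rule. Median detected genes were 2496 and 2510. Of the 10 remaining S members, 6 had a log2 ratio of at least 1 (median 1.62), beside 2.79% of 11951 genes. All 15 remaining G2/M members were at -1 or less (median -3.55), beside 3.31% of genes. Helicase and loading members differed most on the S side: Mcm2 was at 146.3 CPM in S-only and 24.4 in G2/M-only cells (log2 ratio 2.53), Mcm6 at 187.4 and 34.4 (2.41), and Cdc6 at 43.8 and 9.98 (2.03). Rrm1 was level (124.2 and 123.2 CPM, log2 ratio 0.01), with 270.0 CPM in cells that met both rules. Tyms at 0.43, Slbp at 0.81 and Pcna at 0.98 were also under 1, and all 3 were highest in the cells that met both rules (290.7, 293.4 and 351.3 CPM). On the G2/M side, Ube2c stood at 20.8 and 959.7 CPM (-5.46), Hmmr at 6.19 and 198.6 (-4.8), and Cdc20 at 17.7 and 336.7 (-4.18). Kif11 (151.6 CPM), Aurkb (128.2) and Bub1 (77.7) were about as high in the cells that met both rules as in G2/M-only cells (128.7, 116.6 and 83.0 CPM), whereas Ccnb2, Cenpa and Cdc20 rose from 166.6, 270.9 and 114.3 to 376.4, 712.5 and 336.7 CPM.

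**Figure D4:**
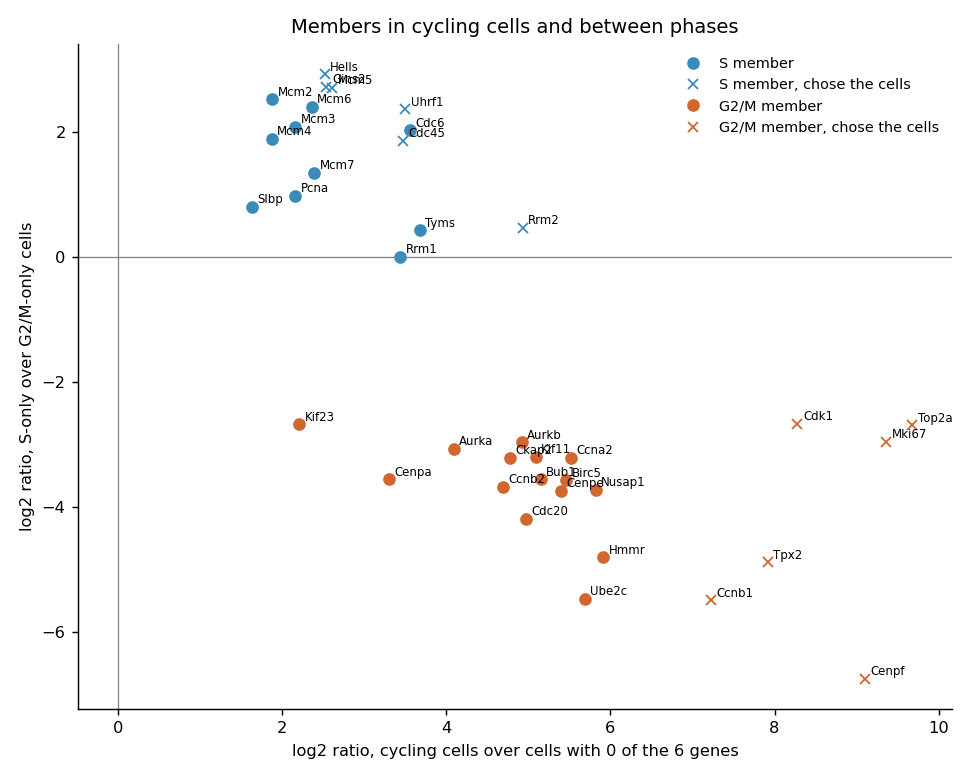
Each of the 37 members by its log2 ratio of cycling cells over cells with 0 of the 6 genes (horizontal axis) and of S-only over G2/M-only cells (vertical axis). Crosses are members that chose the cells. S members lie at or above 0 on the vertical axis, with Rrm1 at 0.01, and the G2/M members lie at -2.66 or below.

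Other genes of the cycle were taken from lists written with earlier results of these data known. In cycling cells all 28 other origin and fork genes reached a log2 ratio of 1 (median 2.46), with Clspn, the fork checkpoint mediator, at 4.52 and Mcm10 at 3.65. All 43 other mitosis genes were too (median 4.56), with Prc1, the midzone bundler, at 5.62 and Kif4 at 5.34, and all 14 chromatin and tubulin genes (median 1.92), with Stmn1 at 3.49. Of 10 nucleotide supply genes 7 were (median 1.38), with Tk1 at 4.57. Of 17 E2F and MYB-FOXM1 factors 13 were (median 1.73), with Foxm1 at 4.41, E2f7 at 3.77, E2f8 at 3.74 and Mybl2 at 3.69. These counts stand beside the 7.93% of all genes. They pool all cell types, so the makeup of the compared cells enters them. Inside general capillary-like cells several fork genes were under 1, such as Rfc3 at 0.42 and Orc1 at 0.6. Others there stayed high, such as Clspn at 3.93 and Mcm10 at 3.67. Low values were not particular to that type, since Orc1 was at 0.53 in lipofibroblast or matrix fibroblast-like cells. Ptma, a chromatin list gene, ran from 0.53 to 1.62 inside the 6 types.

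Cyclins and inhibitors of G1 behaved less uniformly. Beside 7.93% of all genes higher and 3.44% lower, 4 of 8 G1 cyclins and kinases reached 1 and 0 were as low as -1, led by Ccne2 at 3.71 and Ccne1 at 2.95, the cyclins that open S phase. Ccnd2, a growth-signal cyclin, was lower in cycling cells inside each of the 6 types, by log2 ratios from -0.44 in alveolar macrophage-like to -1.98 in general capillary-like cells. Ccnd1 had ratios between -0.87 and 0.31. Of 12 inhibitors and pocket proteins 3 reached 1 and 3 were at or below -1, beside the same shares of all genes. Cdkn2c (2.93) was higher inside all 6 types, by 1.3 to 4.63. Btg1, an antiproliferative gene, was at 301.6 CPM in cycling cells and 1097 in the others (-1.86), and inside types its ratio ran from -0.36 to -1.31. The level of Btg1 in mature neutrophil-like cells was 3858 CPM, so the makeup of the compared cells enters the pooled value.

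In the bulk PDGFRA+ library all 37 members had reads. A level of 10 CPM was reached by 35 of them and by most listed genes, since Cenpf at 10.3 CPM stood at the 45.9 percentile. Among the members Pcna was highest at 135.1 CPM (exact Poisson 95% interval 133.4 to 136.9) and Cdc6 lowest at 7.74 (7.33 to 8.16). Their median was 37.8 CPM, at the 72.0 percentile of listed genes. The library was checked against marker lists: Pdgfra was at 183.7 CPM and Acta2 at 3330, and all 10 alveolar myofibroblast, 8 of 8 smooth muscle, 10 of 10 adventitial fibroblast and 8 of 9 lipofibroblast or matrix fibroblast markers were at 10 CPM or more. Of 9 pericyte markers 6 were (summed 1972 CPM), of 7 alveolar type 2 markers 3 (144.7), of 11 alveolar macrophage markers 2 (169.4), of 8 general capillary markers 2 (223.7) and of 9 natural killer markers 0 (2.8). Ptprc at 5.08 CPM, Pecam1 at 6.38 and Epcam at 0.588 were low. The 7 red cell markers, 5 of them at 10 CPM or more, summed to 10749 CPM and Sftpc, a surfactant gene of alveolar type 2 cells, stood at 79.1. The part of these other cells in the members' levels was not tested. In a bulk sample, fewer cells of a type and less RNA per cell cannot be told apart.

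Per length, on the deposited TPM, S members were above G2/M members, with medians of 35.4 and 20.8. Pcna led at 221.7 TPM, followed by Ube2c at 93, Cenpa at 70.2 and Mcm7 at 68.6. The lowest were Cenpf at 1.91 TPM, Cenpe at 2.87 and Bub1 at 5.22.

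Set beside the 860 single cells with Pdgfra above 0, of which 21.4% (18.7 to 24.3) were cycling, the bulk library held the S members at a like level and the G2/M members lower. Summed S members were at 824.9 CPM in bulk and 733.5 in the single cells, and summed G2/M members at 654.7 and 1680. As log2 ratios of bulk over single cells, the median was 0.32 for the 16 S members and -0.98 for the 21 G2/M members, with a median of -0.03 over 13172 genes. Only Mcm2 (1.13) and Pcna (1.03) were at 1 or more, beside 20.4% of genes, and 13 members, 10 of them in G2/M, were at -1 or less, beside 23.3%. On TPM the medians were -0.22 and -1.51, around a median of -0.38 over all genes, and against all 1674 fibroblast-like and myofibroblast-like cells they were 0.54 and -0.61, around 0.06.

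The lowest ratios were those of Cenpf (10.3 CPM in bulk and 163.8 in the single cells, -3.87), Hells (9.0 and 52.3, -2.41), Cenpe (11.4 and 64.7, -2.4) and Birc5 (22.0 and 120.5, -2.4). Mitotic members were not uniform: Ccna2 was at 46.5 and 44.5 CPM (0.06), Aurka at 15.2 and 16.4 (-0.11), and Cdc20 at 45.3 and 66.1 (-0.54). The 2 libraries differ in genotype, sort and assay, which cannot be told apart here, and the single-cell assay counts transcript ends while CPM of bulk reads rises with transcript length.

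**Figure D5:**
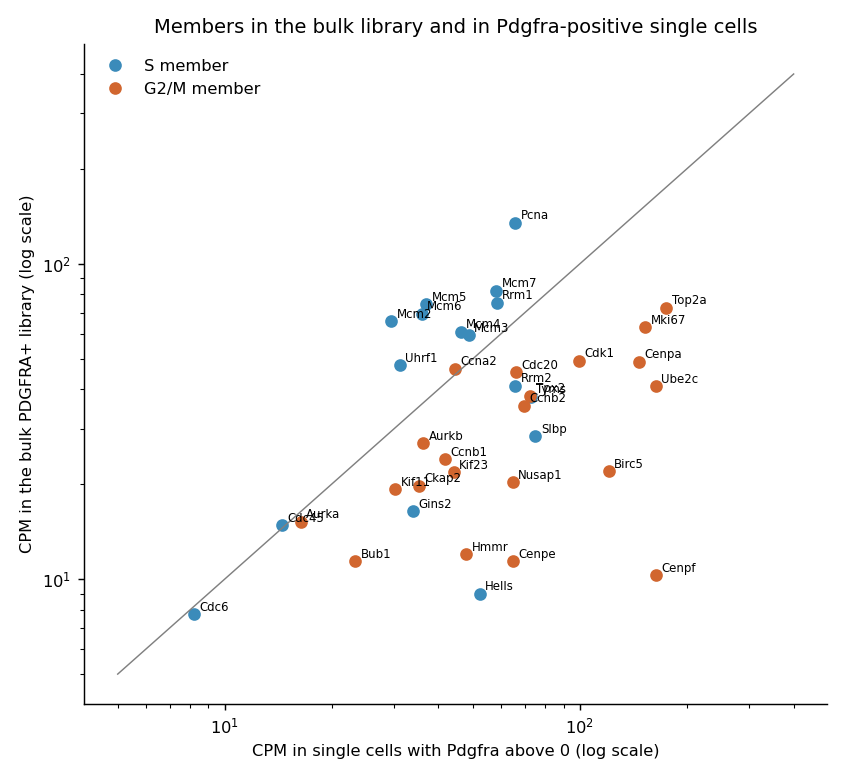
CPM of each member in the bulk PDGFRA+ library (vertical log axis) against its CPM in the 860 single cells with Pdgfra above 0 (horizontal log axis). The grey line marks equal levels, with Mcm2 and Pcna above it and Cenpf farthest below it at 10.3 and 163.8 CPM.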

How the data were processed

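Cell Ranger 5.0 and Seurat 3.2.2 made the single-cell table, per the submitters' processing notes, and the sources used here give no build for it. Its values are a score, whole-number UMI values that the authors had corrected for depth before they were deposited, as the near-equal cell totals show. For the bulk library the notes list mm10 as the build, and DESeq2, featureCounts, HISAT2 and Trim Galore as tools. The deposited bulk expected counts (15.9% of values not whole), TPM and FPKM are the authors' own, and FPKM was not used. Counts were scaled to CPM of 171910584 reads.

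Cells with at least 500 genes and at most 10% mitochondrial values were kept, and doublets were removed with Scrublet in scanpy 1.11.5. The 37 members and the genes of the wider lists were left out of the 2000 variable genes, while other cycle genes could enter. Clusters came from 30 components, 15 neighbours and Leiden resolution 1 (leidenalg 0.10.2). The rule that names clusters from marker lists was revised 3 times after the data were seen, the last time (T with group 2 innate lymphoid cells) after shares of cycling cells were seen; the clusters did not change. The members and gene lists were chosen with earlier results of these data known. All 37 members are named, with fuller values for the 6 rule genes and the 2 other members of each role with the highest sums. Of each wider list at most 4 genes qualified for naming, those with the largest ratio among sums of at least 100. Not all that qualified are named. Ccnd1 and Ccnd2 were chosen after their values were seen, and Rfc3, Orc1 and Ptma were also named outside that rule. Ratios are log2 with 1 CPM added, over genes summing to at least 20. Shares have exact Clopper-Pearson 95% intervals and bulk CPM exact Poisson ones (scipy 1.17.1). The calculation of the ratio of cycling over other cells was run on simulated data (15043 genes), where planted ratios of 1, 2, -1 and -2 came back as 0.92, 1.93, -0.88 and -1.79. Of 50 genes planted at 1, 14 passed 1, and of 50 planted at 2, 47 did. Both simulated sides were pooled draws built on the profile of cells with 0 of the 6 genes. They held no cell types and no difference in detected genes, so the run checks the calculation only. Alternatives changed the filters, doublets, clustering, number of genes required, depth band, added CPM and bulk unit.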

Additional observations from a re-analysis of the deposited data

How the results depend on the processing

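No paired analysis was possible because each group has 1 sample. Requiring at least 2 of the 6 genes gave cycling shares of 15.9% (all cells), 18.8% (mesenchymal), 22.3% (endothelial), 13.8% (epithelial), 11.8% (myeloid) and 18.2% (lymphoid). Requiring at least 4 gave 9.13% (all), 11.6% (mesenchymal), 14.3% (endothelial), 6.5% (myeloid) and 10.8% (lymphoid). Some single types moved further. Conventional dendritic-like cells were at 22.2% (15.3 to 30.5) with at least 2 and 4.76% (1.77 to 10.1) with at least 4, against 11.1% as reported. Interstitial macrophage-like cells were at 8.0% (3.52 to 15.2) with at least 4, against 14% as reported. With at least 1000 detected genes and at most 5% mitochondrial values the shares were 13% (all), 10.2% (myeloid) and 17.2% (lymphoid). Among cells with 1500 to 2500 detected genes they were 9.81% (all), 7.13% (mesenchymal), 12.6% (endothelial), 5.0% (myeloid) and 15.7% (lymphoid), and the S-only shares were 29.7% (all), 34.4% (myeloid) and 28.4% (lymphoid). The summed S over G2/M log2 ratio was -0.59 in the myeloid and -0.72 in the lymphoid lineage, above the -0.79 of all cells, whereas their S-only shares were below that of all cells. Members that reached a bulk ratio of 1 numbered 1 on deposited TPM, 4 against fibroblast-like and myofibroblast-like cells and 3 with 0.1 CPM added. Those at -1 or less numbered 17, 9 and 15 (13 as reported). The median over all genes was -0.38, 0.06 and -0.04 in these settings (-0.03 as reported). The shares of all genes past the same limits are not given, so these counts have no background beside them. The causes were not tested. With T and group 2 innate lymphoid clusters apart, chosen after seeing the data, shares were 5.88% and 55.3%. The 31 members at 1 or more in cycling cells stayed at 31 under all 6 alternatives run. A cell at 0 may hold a transcript that was not sampled.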
